A study of Mus musculus with 2 samples.

Results

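Choroid plexus epithelial cells with a higher share of mitochondrial transcripts were described in single-cell RNA profiles of mouse hippocampal tissue. A cell barcode was a member if it held at least 8 unique molecular identifiers (UMIs, each counting 1 captured transcript) of Folr1, Kcnj13, Sostdc1, Calml4, Cox8b and Kl together, fewer than 10 of 5 oligodendrocyte genes, fewer than 10 of 5 microglial genes, and at least 1% of its UMIs from genes of the mitochondrial genome. The oligodendrocyte genes were Mog, Mag, Ermn, Opalin and Cldn11, and the microglial genes were P2ry12, Cx3cr1, Csf1r, Selplg and Gpr34. Members were thus chosen by these measured UMI counts and by the mitochondrial share. There were 2327 such cells among 10015 barcodes. The GlaKO library gave 456 of 4572 barcodes (9.97%, interval 9.12 to 10.9%), and the wt library gave 1871 of 5443 (34.4%, interval 33.1 to 35.7%). The rule used measured values, so these shares, the marker genes of the rule, the mitochondrial genes and every contrast with the choroid plexus cells under 1% are descriptions.

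The study compared GlaKO mice, which lack a working Gla gene and serve as a model of Fabry disease, with their wt littermates, all 57 weeks old. The product of Gla, alpha-galactosidase A, trims galactose from glycosphingolipids, which pile up in lysosomes without it. There was 1 library of each genotype. The sources used here give neither the number of animals pooled in a library nor the disrupted part of Gla. All mice of both genotypes were perfused with buffered saline, and cells were freed by enzymes, cleared of debris on a gradient and sorted as living with 7-AAD. With 1 library per genotype no test was possible: every GlaKO over wt difference is a difference between 2 libraries, and each 95% interval covers counting error only and takes UMIs as independent. How much choroid plexus was dissected with each hippocampus cannot be told apart from genotype.

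The choroid plexus hangs in the brain's ventricles as a folded sheet of epithelium over leaky capillaries. Its epithelial cells make most of the cerebrospinal fluid by moving sodium, chloride, bicarbonate and water from blood to ventricle, and they seal the space between them with tight junctions. They also secrete carrier proteins, growth factor binding proteins and enzymes into the fluid and take up folate, thyroid hormone and other nutrients with carriers. This work needs much ATP, and the cells are known for their many mitochondria and their well-developed rough endoplasmic reticulum (ER), where secreted and membrane proteins are made.

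Markers that the rule did not use placed the members in choroid plexus. Kcne2, a subunit of potassium channels, stood at 637 CPM (612 to 662) in GlaKO members and 406 CPM (395 to 418) in wt members (CPM, counts per 1000000 UMIs of the summed class, with exact Poisson intervals), against 2.29 CPM in GlaKO and 4.95 CPM in wt among barcodes outside choroid plexus. Otx2, the homeobox factor that sets choroid plexus identity, stood at 284 CPM in GlaKO members and 284 CPM in wt members, against 2.42 CPM in GlaKO and 11.6 CPM in wt outside. Clic6, an intracellular chloride channel protein, stood at 506 CPM in GlaKO members and 525 CPM in wt members, against 4.22 CPM in GlaKO and 20.4 CPM in wt outside. Kcne2, Otx2 and Clic6 were far higher in members than in barcodes outside choroid plexus in both libraries. Ttr, the most familiar choroid plexus product, is not among the genes listed for either library. No level, total or share given here counts it. Levels are 3′ tag counts, 1 tag per captured transcript, so gene length does not enter them.

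Members were well covered, with 3873548 UMIs in the GlaKO and 12610133 in the wt library. The median member held 7702.5 UMIs and 2593 genes in GlaKO, against 5635 UMIs and 2104 genes in wt. The mitochondrial share had a median of 2.60% in GlaKO members and 3.37% in wt members. Of the choroid plexus cells, 56.7% of 804 in GlaKO (53.2 to 60.2%) and 73.4% of 2549 in wt (71.6 to 75.1%) reached 1%. Just inside the threshold, between 1 and 1.1%, lay 20 GlaKO and 35 wt cells, and just outside, between 0.9 and 1%, lay 14 GlaKO and 52 wt cells. At the marker threshold, 4 GlaKO and 15 wt members held 8 to 10 marker UMIs, and 5 GlaKO and 10 wt barcodes with 5 to 7 fell outside. The libraries shared 6 cell barcodes, none of them a member. The share ran on without a gap across 1%, as the distribution of mitochondrial shares shows, so the members are a range of a continuum and no separate cell type.

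**Figure D1:**
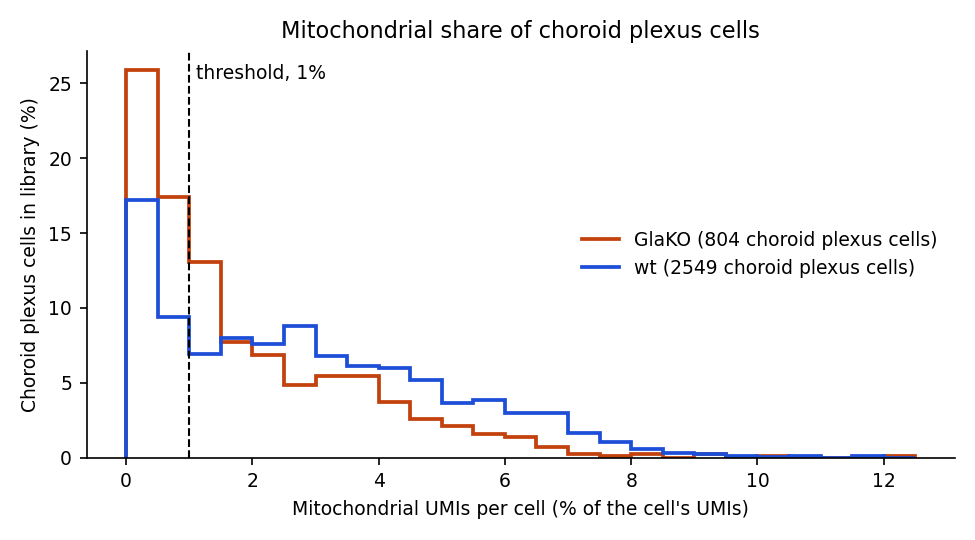
Share of each library's choroid plexus cells (vertical axis, percent) by the share of a cell's UMIs from mitochondrial genes (horizontal axis, bins of 0.5 percentage points), in GlaKO (804 cells) and wt (2549 cells); the dashed line is the 1% threshold. Both libraries have their highest bin under 0.5%, and wt holds a larger share of its cells between 2 and 8%.

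Members carried high levels of transcripts for secreted proteins. The 39 genes compared from a list of secreted choroid plexus proteins, which lack Ttr, made up 4.96% of all UMIs in GlaKO members and 5.701% in wt members. Enpp2, which encodes the secreted enzyme autotaxin, was the most abundant of them, at 13994 CPM (13877 to 14112) in GlaKO members and 14704 CPM (14637 to 14771) in wt members. Apoe, the lipid carrier apolipoprotein E, stood at 5839 CPM (5763 to 5915) in GlaKO members and 9317 CPM (9264 to 9371) in wt members. The transcript 1500015O10Rik stood at 5202 CPM (5131 to 5275) in GlaKO members and 4622 CPM (4585 to 4659.9) in wt members. Cst3, the protease inhibitor cystatin C, came to 4385 CPM in GlaKO and 4273 CPM in wt. Ptgds, prostaglandin D synthase, came to 4126 CPM in GlaKO and 4913 CPM in wt, and Clu, the chaperone clusterin, to 2649 CPM in GlaKO and 3291 CPM in wt. Igfbp2, a binding protein of insulin-like growth factors, came to 1676 CPM in GlaKO and 2581 CPM in wt. Apoe, Cst3 and Ptgds are also made by other brain cells, and barcodes outside choroid plexus held 6269 CPM in GlaKO and 7572 CPM in wt of Apoe, 13978 CPM in GlaKO and 13152 CPM in wt of Cst3 and 6479.9 CPM in GlaKO and 6666 CPM in wt of Ptgds. Apoe, Clu, Ptgds and Igfbp2 were lower in GlaKO members and 1500015O10Rik was higher.

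Levels differed widely from cell to cell, even for these abundant transcripts. Between the 5th and 95th percentile of members, Enpp2 ran from 3656 to 43914 CPM in GlaKO and from 4635 to 36322 CPM in wt. Trf, which encodes the iron carrier transferrin, varied more, with a coefficient of variation over cells of 1.73 in GlaKO and 1.504 in wt, against 0.794 in GlaKO and 0.642 in wt for Enpp2. The ribosomal protein gene Rpl41 varied least of these, at 0.322 in GlaKO and 0.336 in wt. These coefficients hold counting noise, which is larger for the less abundant Trf. Most members had at least 1 UMI of each abundant secretory gene, with Trf in 68.2% of GlaKO and 78.1% of wt members as the lowest of those named.

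Genes of ion and water transport, which drives fluid secretion, were lower in level. Fxyd1, phospholemman, a regulator of the sodium pump, stood at 1873 CPM in GlaKO members and 2155 CPM in wt members. Atp1b1, the pump's beta subunit, stood at 787 CPM in GlaKO and 828 CPM in wt. Kcnj13, a potassium channel of the apical membrane and a gene of the rule, stood at 761 CPM in GlaKO and 1067 CPM in wt, and Car2, a carbonic anhydrase, at 937 CPM in GlaKO and 874 CPM in wt. The sodium, potassium and chloride cotransporter gene Slc12a2 reached 204 CPM in GlaKO and 229 CPM in wt. Aqp1, the water channel of the apical membrane, reached 85.7 CPM (76.7 to 95.4) in GlaKO members and 119 CPM (113 to 125) in wt members, and 44.7% of GlaKO and 47.9% of wt members had a UMI of it. Barcodes outside choroid plexus held 0.135 CPM in GlaKO and 1.62 CPM in wt of Aqp1, far below its level in members.

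**Figure D2:**
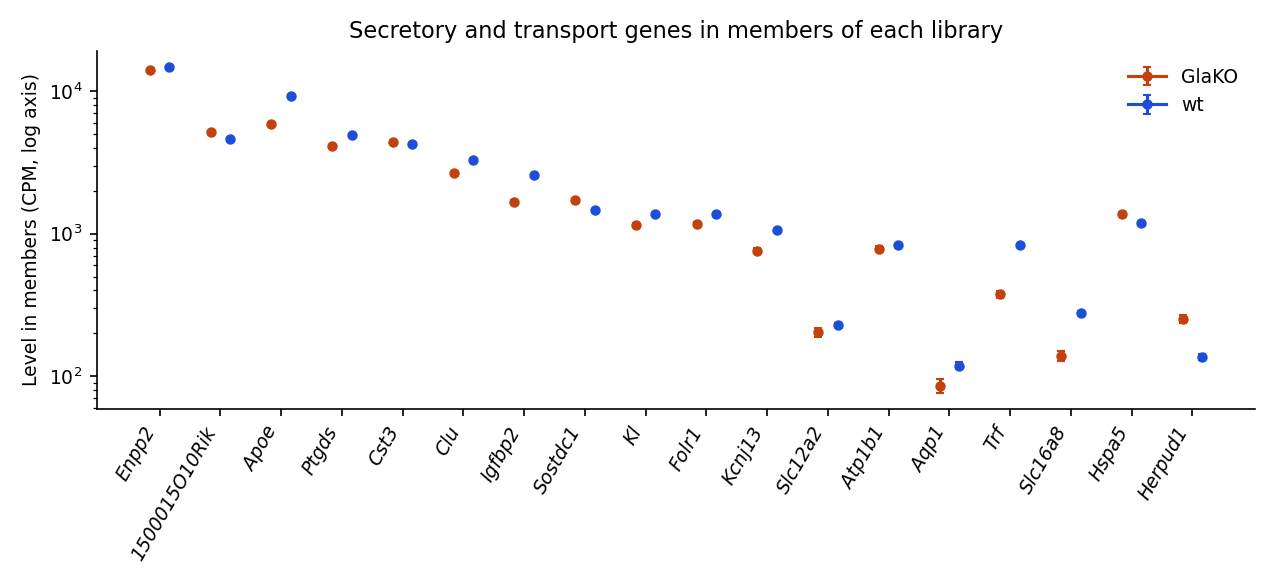
Levels of 18 secretory, transport and ER genes in members (CPM, logarithmic axis), GlaKO left of wt for each gene; points are sums over all members of the library and bars are exact Poisson 95% intervals, many narrower than the point. Enpp2 is highest in both libraries, Apoe, Igfbp2, Trf and Slc16a8 lie lower in GlaKO, and Herpud1 lies higher in GlaKO.

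Across all choroid plexus cells, secretory transcripts took a larger share of a cell's nuclear-gene UMIs the higher its mitochondrial share was. In GlaKO, secreted proteins made up 2.12% of nuclear-gene UMIs in the 111 cells under 0.25% mitochondrial, 4.24% in the 167 cells at 1 to 2%, and 8.38% in the 56 cells at 5% or more. In wt the same 3 values were 1.205% in 266 cells, 3.798% in 380 cells and 9.08% in 456 cells. Solute carriers went the same way, with 0.183 and 0.797% in the lowest and highest bins of GlaKO, and 0.09696 and 0.929% in those of wt. So did lysosomal enzymes, with 0.216 and 1.05% in GlaKO, and 0.118 and 1.24% in wt. Nuclear-encoded subunits of the respiratory chain went the other way. They took 12.4% in the lowest and 9.62% in the highest bin of GlaKO, and 13.3 and 10.5% in those of wt. Glycolytic enzymes also took less, with 1.798 and 1.18% in GlaKO, and 1.97 and 1.15% in wt. A higher mitochondrial share was thus not accompanied by more transcripts of the nuclear genes that build the respiratory chain.

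**Figure D3:**
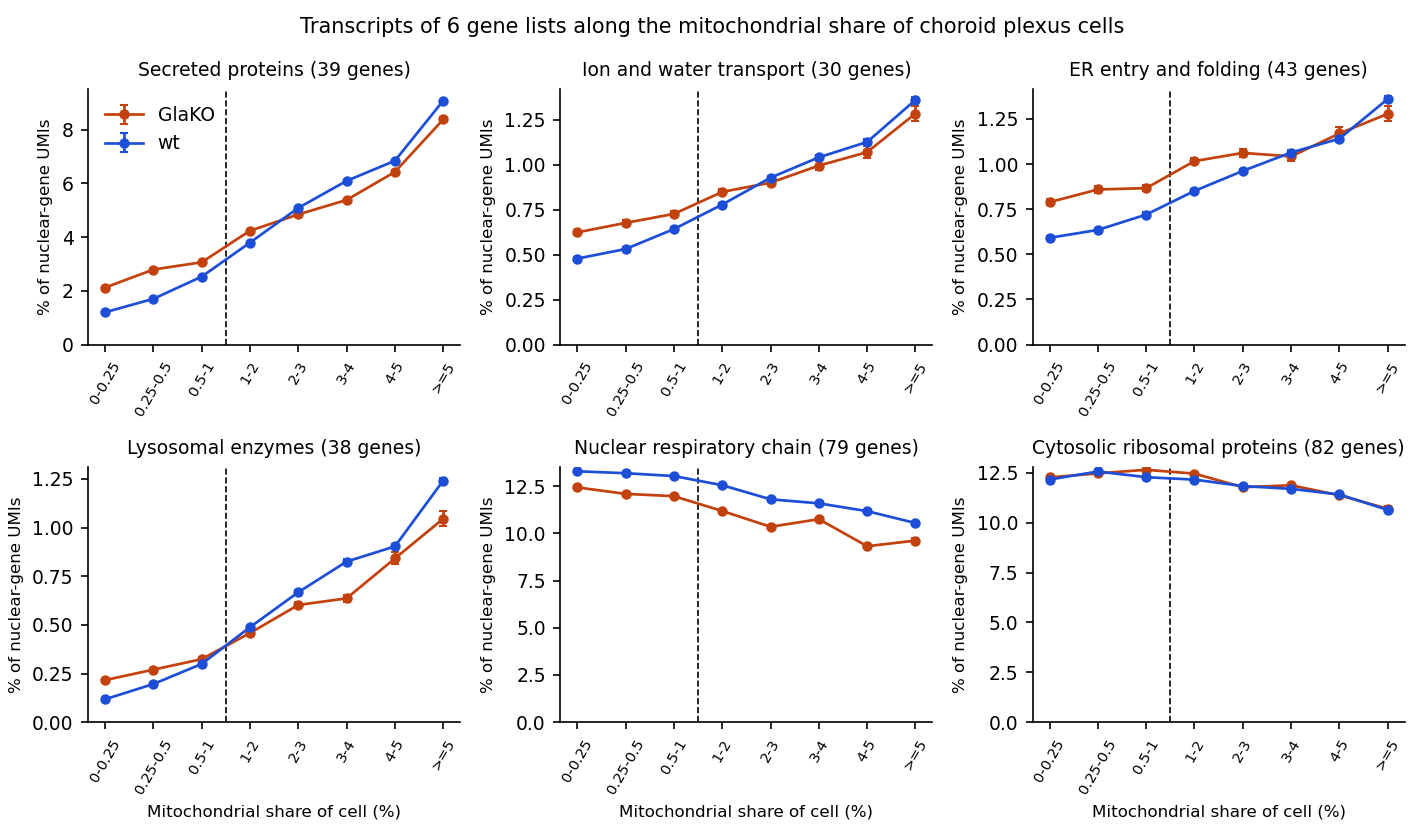
Share of nuclear-gene UMIs taken by 6 gene lists (vertical axes, percent, from 0) in choroid plexus cells binned by mitochondrial share (horizontal axes, percent), GlaKO and wt; bars are exact binomial 95% intervals and the dashed line is the 1% threshold. Secreted proteins, ion and water transport, ER entry and folding, and lysosomal enzymes take more toward the right, while the nuclear respiratory chain takes less; under 1% the GlaKO line lies above the wt line for these 4 lists.

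The same relation held among the members alone. Across members, the secreted share had a Spearman correlation with the mitochondrial share of 0.45 in GlaKO (456 cells) and 0.63 in wt (1871 cells). Nuclear respiratory chain genes gave -0.38 in GlaKO and -0.45 in wt. These are descriptions over cells of 1 library each, whose 2 measures share the cell's depth. Depth moved with both: the secreted share correlated with a cell's UMIs at -0.45 in GlaKO and -0.40 in wt, and the mitochondrial share at -0.37 in GlaKO and -0.30 in wt. The part of depth in these relations was not tested.

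Set against the choroid plexus cells under 1% of the same library (348 GlaKO and 678 wt cells), with both classes scaled to nuclear-gene UMIs, 782 of 6581 genes were at least 1.5-fold higher in members in both libraries (11.9%). Only 5 were at least 1.5-fold lower in both (0.076%), namely Mapk13, Gsc, Prps1l3, Morc3 and Snhg18, although 106 were when each cell was thinned to 2000 UMIs. This is the contrast of the rule, and it is given without reading its size as evidence. Of the secreted proteins, 30 of the 36 that could be compared were among the higher genes, as were 25 of 28 solute carriers, 31 of 33 lysosomal enzymes and 16 of 26 ion and water transport genes. In contrast, 0 of 79 nuclear respiratory chain genes, 0 of 82 cytosolic ribosomal protein genes, 0 of 15 glycolytic genes and 0 of 12 choroid transcription factor genes were. The median log2 ratio of secreted proteins, members over cells under 1%, was 1.01 in GlaKO and 1.88 in wt, against -0.017 in GlaKO and -0.17 in wt over all genes.

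Several lists split within themselves along this contrast. Among genes of ER entry and folding, 24 of 41 were higher in members in both libraries. The high ones included Calr (the chaperone calreticulin, 1.202 in GlaKO and 2.35 in wt), Pdia6 (a disulfide isomerase, 1.105 in GlaKO and 2.05 in wt), Rpn2 (a subunit of the glycosylating enzyme of the ER, 1.21 in GlaKO and 2.11 in wt) and Sec61a1 (the channel of the translocon, 1.22 in GlaKO and 2.25 in wt). Parts of the signal recognition particle, which works in the cytosol, were not higher, with Srp14 at -0.26 in GlaKO and -0.25 in wt and Srp9 at -0.20 in GlaKO and -0.28 in wt. The small translocon subunits Sec61g (-0.23 in GlaKO and -0.24 in wt) and Sec61b (-0.28 in GlaKO and -0.25 in wt) were also lower in members. In the vesicle traffic list, the membrane cargo receptors Tmed10 (0.84 in GlaKO and 1.89 in wt) and Lman1 (0.97 in GlaKO and 2.01 in wt) were higher. The cytosolic coat subunits Copa (-0.0040 in GlaKO and -0.11 in wt), Sec31a (-0.31 in GlaKO and -0.37 in wt) and Arcn1 (-0.18 in GlaKO and -0.36 in wt) were not. Among junction genes the membrane proteins Cldn2 (1.06 in GlaKO and 2.19 in wt) and Ocln (1.33 in GlaKO and 2.43 in wt) were higher, and the keratin gene Krt18 (-0.30 in GlaKO and -0.53 in wt) and the membrane linker gene Ezr (-0.19 in GlaKO and -0.36 in wt) were lower. These splits were noticed after the values were seen.

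**Figure D4:**
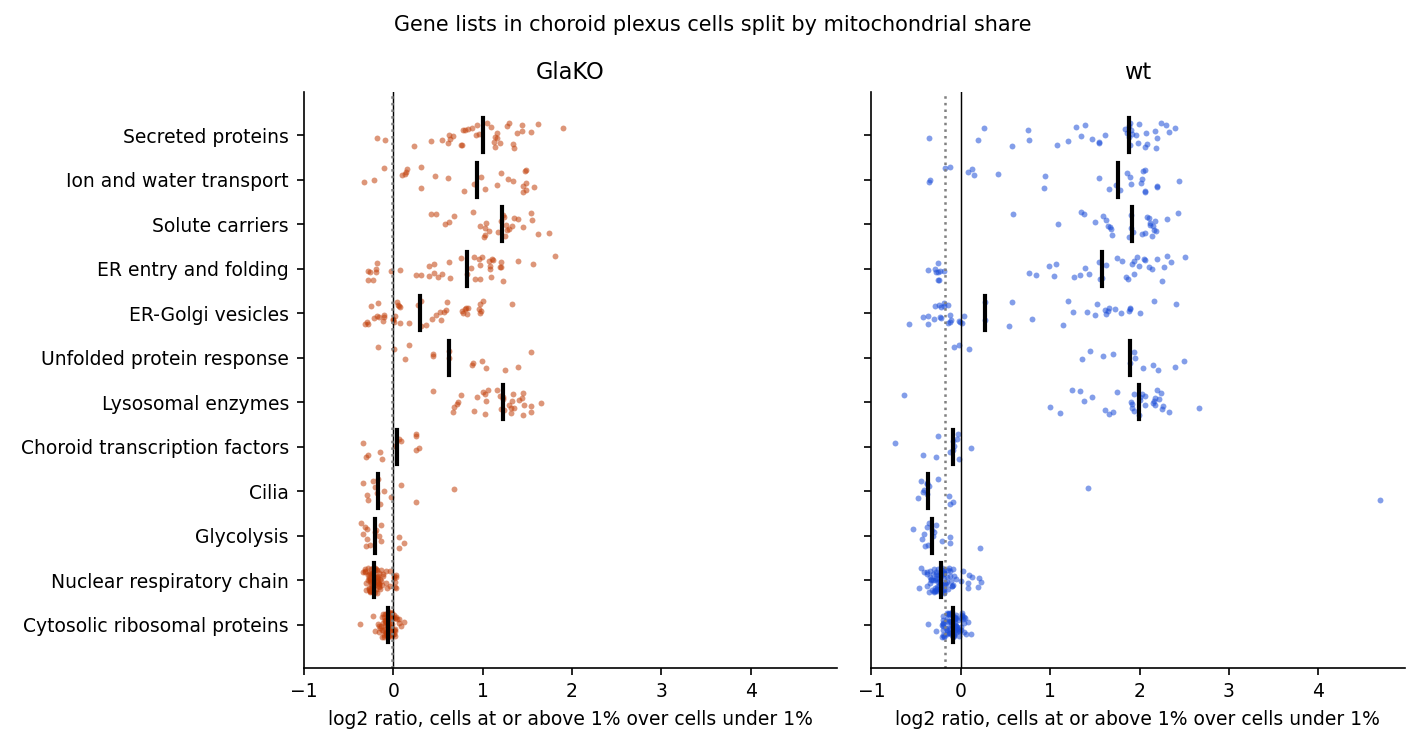
log2 ratio of members over choroid plexus cells under 1% for the genes of 12 lists in GlaKO (left) and wt (right), each scaled to nuclear-gene UMIs; points are genes, black bars are medians and the dotted line is the median of all genes. Secreted, transport and lysosomal genes lie near 1 in GlaKO and near 2 in wt, the ER entry and ER-Golgi lists fall into a high and a low group, and the nuclear respiratory chain and ribosomal genes lie near 0.

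The genes with the largest ratios in both libraries were named by rank alone, with no count of their kind over all genes. Emc1, a subunit of the ER membrane protein complex, had ratios of 2.28 in GlaKO and 2.57 in wt. Alg2, a mannosyltransferase of the ER, had 2.14 in GlaKO and 2.35 in wt, and Abca1, a cholesterol exporter of the cell membrane, had 2.14 in GlaKO and 2.26 in wt. Glg1, a Golgi glycoprotein (1.98 in GlaKO and 2.01 in wt), Srebf1, whose product is made as an ER membrane precursor (1.93 in GlaKO and 2.03 in wt), Oca2, a membrane protein of pigment organelles (1.91 in GlaKO and 2.36 in wt), and Nid2, a basement membrane protein (1.85 in GlaKO and 2.56 in wt), came next. Rarres2, which encodes the secreted chemerin, had 2.39 in GlaKO and 2.31 in wt, but a few cells with ependymal genes carried part of its UMIs. On the low side, Gsc, a homeobox factor, had -0.82 in GlaKO and -0.66 in wt, and Snhg18, a noncoding RNA, had -0.59 in GlaKO and -0.76 in wt.

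Between genotypes, 665 of the 8662 genes compared in members were at least 1.5-fold higher in GlaKO (7.68%) and 153 were at least 1.5-fold lower (1.77%). With TMM scaling, which sets the bulk of genes equal, the split became 363 higher and 315 lower, since the median log2 ratio of all genes moved to -0.042 from 0.10. With cells thinned to 2000 UMIs, which leaves fewer UMIs per gene, 1093 genes were past 1.5-fold higher and 560 past 1.5-fold lower. The interval lay above equal levels for 2092 genes (24.2%) and below for 759 (8.76%). The ratio was above 0 for 5675 genes (65.5%) and under 0 for 2987 (34.5%). Against this background, secreted proteins lay low in GlaKO: 3 of 39 were past 1.5-fold higher and 6 past 1.5-fold lower, and the intervals of 11 lay above and of 22 below equal levels. Their median log2 ratio was -0.22, against 0.10 over all genes, with a range of -0.37 to -0.0055 over the other settings. Solute carriers had a median of -0.23 over 37 genes (3 higher and 3 lower past 1.5-fold), which was 0.042 when depth was weighted equally. Ion and water transport genes had -0.063 over 30 genes (4 and 0), and this sign also turned, to 0.097 with equal weights of depth and 0.042 with equal weights of mitochondrial share. Outside choroid plexus, the median over the same 39 secreted protein genes was -0.21. There it was -0.35 over the 37 solute carriers and -0.21 over the 30 ion and water transport genes. Medians under 0 for these lists were thus also seen outside choroid plexus, where no separate minimum count was set. In choroid plexus cells under 1% the medians were above 0, at 0.42 over 35 secreted protein genes. They were 0.55 over 26 solute carriers and 0.38 over 26 ion and water transport genes in those cells.

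**Figure D5:**
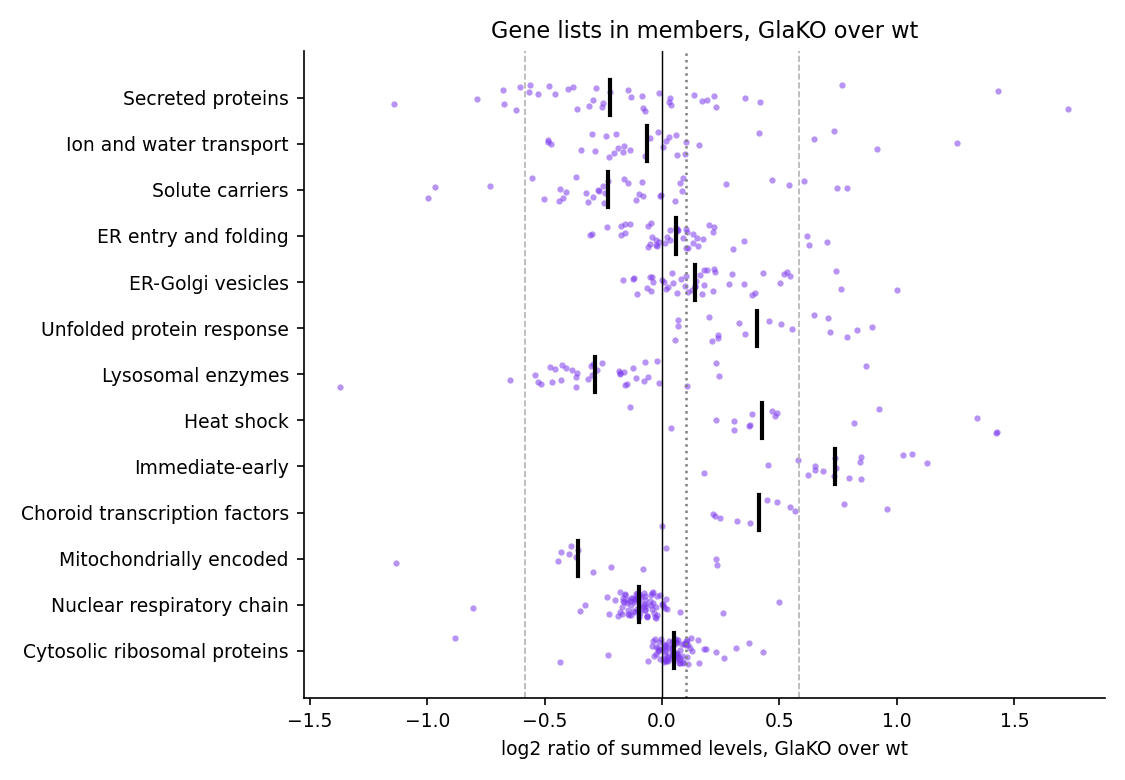
log2 ratio of summed levels in members, GlaKO over wt, for the genes of 13 lists; points are genes, black bars are list medians, the dotted line is the median of all genes and dashed lines mark 1.5-fold. Unfolded protein response, heat-shock and immediate-early genes lie to the right of the line, and lysosomal, solute carrier and mitochondrially encoded genes lie to its left.

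Among the secreted proteins, Trf had the lowest ratio. It stood at 376 CPM (357 to 395) in GlaKO members and 829 CPM (813 to 845) in wt members, a log2 ratio of -1.14 (-1.22 to -1.06). Scg5, a secretory granule protein, stood at 67.4 CPM in GlaKO and 116 CPM in wt (-0.79), Angptl2, an angiopoietin-like protein, at 29.4 CPM in GlaKO and 47.03 CPM in wt (-0.68), Apoe had -0.67 (-0.69 to -0.65) and Igfbp2 -0.62 (-0.66 to -0.58). Higher in GlaKO were Igfbp4, another binding protein of insulin-like growth factors, at 13.9 CPM in GlaKO and 4.203 CPM in wt (1.73), Ptn, the growth factor pleiotrophin, at 74.6 CPM in GlaKO and 27.7 CPM in wt (1.43), and Slit2, an axon guidance protein, at 29.2 CPM in GlaKO and 17.1 CPM in wt (0.77). Outside choroid plexus Ptn stood at 1386 CPM in GlaKO and 1490.5 CPM in wt, far above its level in members. Col18a1, a collagen of basement membranes, completed the genes past 1.5-fold lower, at 18.8 CPM in GlaKO and 28.6 CPM in wt (-0.60).

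Since mitochondrial share differed between the libraries, values were also set side by side within 4 ranges of mitochondrial share, divided at 2.08, 3.22 and 4.73%. Enpp2 stood at 11013, 13594, 17495 and 25208 per 1000000 nuclear-gene UMIs in GlaKO, against 8968, 12919, 16966 and 24402 in wt, from the lowest to the highest range. It was thus somewhat higher in GlaKO in each range, although its pooled ratio was -0.071. Apoe stood at 4612, 5983, 7064 and 10293 in GlaKO, against 6124, 8734, 10610.1 and 14301 in wt, lower in GlaKO in all 4. Igfbp2 was likewise lower in all 4, at 1381, 1578, 2034 and 2999 in GlaKO and 1676, 2316, 2929.5 and 4140.5 in wt. Trf too was lower in all 4, at 308, 384, 462 and 585 in GlaKO and 604, 781, 895 and 1249.7 in wt. The opposite held for 1500015O10Rik, at 4872, 5089, 5494 and 8022 in GlaKO and 3142, 4338, 5225 and 6999 in wt, and for Sostdc1, an antagonist of bone morphogenetic proteins and a gene of the rule, at 1751, 1544, 1764 and 2356 in GlaKO and 953, 1353, 1661 and 2278 in wt. Cst3 was higher in GlaKO in 3 of the 4 ranges, at 4138, 4211, 4634 and 6785 in GlaKO and 2956, 3978, 4881 and 6390.2 in wt. The part of mitochondrial share in the pooled ratios was not tested.

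For ion transport, Kcnj13 was lower in GlaKO in all 4 ranges, at 686, 712, 838 and 1303 in GlaKO and 749, 993, 1196 and 1610.4 in wt, with a pooled log2 ratio of -0.49 (-0.55 to -0.43). Aqp1 had -0.47 (-0.65 to -0.30) and the membrane carbonic anhydrase Car12 -0.48 (-0.62 to -0.35). Atp1b1 had -0.074 (-0.13 to -0.015), which turned to 0.19 with equal weights of depth. Kcne2 was higher in GlaKO, with 0.65 (0.58 to 0.72), as were the low-level genes Slc4a4, a sodium bicarbonate cotransporter (0.92), Oxsr1, a kinase that acts on cotransporters (0.73, but -0.24 with cells thinned to 2000 UMIs), and Aqp4, the water channel of astrocytes (1.26). In members Aqp4 stood at 11.4 CPM in GlaKO and 4.76 CPM in wt and Slc4a4 at 13.2 CPM in GlaKO and 6.98 CPM in wt. Both were far higher outside choroid plexus, where Aqp4 stood at 75.7 CPM in GlaKO and 101 CPM in wt and Slc4a4 at 195 CPM in GlaKO and 231 CPM in wt.

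Of the solute carriers, Slc16a8, a lactate transporter of the epithelium, had the lowest ratio. It stood at 139 CPM (127 to 151) in GlaKO members and 277 CPM (267 to 286) in wt members, a log2 ratio of -0.997 (-1.13 to -0.87), and outside choroid plexus at 0.314 CPM in GlaKO and 2.21 CPM in wt. The amino acid carriers Slc6a20a (31.2 CPM in GlaKO and 60.98 CPM in wt, -0.97) and Slc7a10 (98.4 CPM in GlaKO and 163 CPM in wt, -0.73) were also past 1.5-fold lower in GlaKO. Past 1.5-fold higher were the amino acid carrier Slc6a15 (0.79), the zinc exporter Slc30a1 (0.74) and the exporter Abcc5 (0.60). Folr1, the folate receptor and a gene of the rule, stood at 1165 CPM in GlaKO and 1383 CPM in wt (-0.25), and Slco1c1, a thyroid hormone carrier, at 301 CPM in GlaKO and 322 CPM in wt (-0.10).

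In the unfolded protein response, cells raise ER chaperones when protein folding is strained. Genes listed for it and for the integrated stress response were higher in GlaKO members. Both kinds form 1 list, called that of the unfolded protein response here. All 18 compared had a ratio above 0, against 65.5% of all genes, 15 had an interval above equal levels, against 24.2%, and 6 passed 1.5-fold, against 7.68%, with a median of 0.41 and a range of 0.26 to 0.52 over the other settings. Herpud1, an ER protein of the degradation pathway, stood at 254 CPM (238 to 270.1) in GlaKO members and 137 CPM (130.2 to 143) in wt members, a log2 ratio of 0.89 (0.78 to 1.01). In the 4 ranges of mitochondrial share it stood at 259, 243, 253 and 335 in GlaKO, against 89.7, 125, 157 and 211 in wt, higher in GlaKO in each. Creld2 (115 CPM in GlaKO and 64.7 CPM in wt, 0.83), the cochaperone gene Dnajb9 (105 CPM in GlaKO and 60.98 CPM in wt, 0.79), Sdf2l1 (423 CPM in GlaKO and 258 CPM in wt, 0.71), the stress-induced factor Ddit3 (48.8 CPM in GlaKO and 29.9 CPM in wt, 0.71) and Psat1, an enzyme of serine synthesis (9.55 CPM in GlaKO and 6.11 CPM in wt, 0.65), were the others past 1.5-fold. The secreted ER protein gene Manf followed at 1082 CPM in GlaKO and 737 CPM in wt (0.55). The most abundant chaperones had small ratios, with Hspa5, the ER chaperone BiP, at 1373 CPM in GlaKO and 1184 CPM in wt (0.21) and Hsp90b1 at 1371 CPM in GlaKO and 1318 CPM in wt (0.057, and -0.088 with TMM scaling). Over the same 18 genes outside choroid plexus, the median ratio was 0.043. ER entry and folding genes had a median of 0.059 over 43 genes (3 higher and 0 lower past 1.5-fold), between -0.086 and 0.14 over the other settings. Their highest ratios were those of Spcs3 (0.70), a signal peptidase subunit, Ssr3 (0.63), of the translocon-associated complex, and Srprb (0.62), of the signal recognition receptor. Rpn2 (-0.31), Ddost (-0.30) and Pdia6 (-0.23, and 0.0093 with equal weights of depth) were lowest.

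Because all 18 genes had ratios on 1 side, the promoters of both lists were read for the endoplasmic reticulum stress element, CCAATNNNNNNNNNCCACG on either strand, to which ATF6 binds with NF-Y. The window ran from 250 bases before to 50 after the gene start in RefSeq's table for GRCm38.p6. Of 15 unfolded protein response genes with a promoter in the table, 4 held the exact letters, and so did 3 of 33 ER entry and folding genes. It was in 0 of 29 secreted protein genes and 0 of 22 ion transport genes. Counted by gene, it was in 11 of 6894 compared genes with a promoter (0.16%), the 7 genes of both lists included. Counted by promoter, it was in 39 of all 32851 (0.119%). The element is named for stress of the ER, and both lists hold genes chosen for a part in the ER or stress responses. Matches in them could therefore be foreseen, and the counts are descriptions and no test. The 7 genes' matches are shown 5′ to 3′ along the gene with 5 bases on each side, the coordinates being those of the promoter window and the capitals the element, read on the opposite strand where it begins CGTGG.
Hspa5, chr2:34771840-34772139, plus strand: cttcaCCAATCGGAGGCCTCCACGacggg
Dnajc3, chr14:118937682-118937981, plus strand: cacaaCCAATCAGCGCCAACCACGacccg
Creld2, chr15:88819396-88819695, plus strand: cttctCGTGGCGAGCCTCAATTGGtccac
Hsp90b1, chr10:86705395-86705694, minus strand: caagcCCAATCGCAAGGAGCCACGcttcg
Hsp90b1, chr10:86705395-86705694, minus strand: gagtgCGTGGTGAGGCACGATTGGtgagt
Calr, chr8:84846882-84847181, minus strand: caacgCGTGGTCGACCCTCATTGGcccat
Canx, chr11:50325624-50325923, minus strand: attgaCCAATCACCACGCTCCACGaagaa
Pdia6, chr12:17266339-17266638, plus strand: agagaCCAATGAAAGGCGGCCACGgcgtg
A match describes letters and no binding. The 7 genes with a match did not share a ratio in members: Creld2 had 0.83, Dnajc3 0.36, Hspa5 0.21, Canx, the chaperone calnexin, 0.064, Hsp90b1 0.057, Calr 0.034 and Pdia6 -0.23. Herpud1, with the highest ratio of its list, held no match in this window.

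Lysosomal enzymes were mostly lower in GlaKO members: 34 of 38 had a ratio under 0, against 34.5% of all genes. Past 1.5-fold, 1 was higher and 2 were lower, against 7.68 and 1.77% of all genes. The list had a median of -0.29, within a range of -0.43 to -0.017 over the other settings. The value nearest 0 came with equal weights of depth. Gla itself had the lowest ratio, with 26 UMIs in GlaKO members and 219 UMIs in wt members, or 6.71 CPM (4.38 to 9.83) in GlaKO members and 17.4 CPM (15.1 to 19.8) in wt members, a log2 ratio of -1.37 (-2.02 to -0.78). A 3′ tag counts transcripts and not working enzyme, and without the position of the disruption this level does not check the genotype. In choroid plexus cells under 1%, Gla stood at 4.98 CPM from 18 UMIs, against 2.47 CPM from 14 UMIs in wt, a log2 ratio of 1.01 (-0.081 to 2.13). That interval includes equal levels, and the UMIs are under the minimum of 100 used for comparisons. Psap, the precursor of the saposins that help digest sphingolipids, stood at 1093 CPM in GlaKO and 1574 CPM in wt (-0.53), and the sialidase gene Neu1 at 37.9 CPM in GlaKO and 59.4 CPM in wt (-0.65). Ctsd, a cathepsin, stood at 826 CPM in GlaKO and 1132 CPM in wt (-0.46). Ctss, a cathepsin of microglia, was the exception past 1.5-fold higher (0.87), with 21.4 CPM in GlaKO and 11.7 CPM in wt in members. Outside choroid plexus it stood far higher, at 1494 CPM in GlaKO and 1246 CPM in wt.

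Transcripts encoded by the mitochondrial genome, on which the rule selects, were lower in GlaKO members. Their 13 genes summed to 26783 CPM in GlaKO and 34195 CPM in wt, a log2 ratio of -0.35, and the list's median was -0.040 when mitochondrial share was weighted equally. Subunits of cytochrome oxidase lay close together, with mt-Co1 at -0.36, mt-Co2 at -0.40 and mt-Co3 at -0.43. The overlapping genes mt-Nd4l and mt-Nd4 went apart, at -1.13 and 0.24, but share transcript sequence, and their sum had -0.37. Outside choroid plexus mt-Nd4l and mt-Nd4 also went apart, at -0.90 and 0.50. Among nuclear subunits of the respiratory chain, 71 of 79 had a ratio under 0, against 34.5% of all genes. None was past 1.5-fold higher and 1 was past 1.5-fold lower, near the 1.77% of all genes, and the list had a median of -0.10. That one was Cox8b, a subunit of cytochrome oxidase and a gene of the rule, at 638 CPM in GlaKO and 1114 CPM in wt (-0.80). Over the same 79 nuclear subunits, the median was -0.12 in cells under 1% and -0.18 outside choroid plexus. A median under 0 was thus not particular to members.

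Heat-shock genes, whose proteins refold others in the cytosol, and immediate-early genes, which many stimuli induce rapidly, had medians above that of all genes in GlaKO members. The second list is one of immediate-early and dissociation-response genes. Cells were freed by enzymes, and how each library was handled cannot be told apart from genotype. Of 16 heat-shock genes 5 were past 1.5-fold higher and 0 lower, against 7.68 and 1.77% of all genes. The intervals of 14 lay above equal levels and that of 1, the small heat-shock gene Cryab (-0.14), below. The list was led by Hspa1b (34.1 CPM in GlaKO and 12.7 CPM in wt, 1.43), Hspa1a (44.1 CPM in GlaKO and 16.5 CPM in wt, 1.42) and Hspb1 (468 CPM in GlaKO and 185 CPM in wt, 1.34). The reads of Hspa1a and Hspa1b, near-identical copies, are uncertain between them. Of 17 immediate-early genes 14 were past 1.5-fold higher, against 7.68% of all genes, and 0 lower, with Btg2 (38.98 CPM in GlaKO and 17.8 CPM in wt, 1.13), Socs3 (11.1 CPM in GlaKO and 5.31 CPM in wt, 1.06) and Fos (121 CPM in GlaKO and 67.2 CPM in wt, 0.85) among them. The heat-shock median was 0.43 in members (0.28 to 0.45 over the other settings) 0.44 over the same 16 genes in cells under 1%, and 0.13 outside choroid plexus. The immediate-early median was 0.74 in members (0.58 to 0.90) and 0.13 outside choroid plexus. Over the 10 immediate-early genes compared in both classes it was 0.69 in members and 0.20 in cells under 1%. Transcription factors of the choroid plexus had ratios above 0 in 12 of 12 genes, against 65.5% of all genes, the lowest being that of Otx2 at 0.0014. Past 1.5-fold higher, against 7.68%, were 2 of them, Hes1, a target of Notch (34.1 CPM in GlaKO and 17.5 CPM in wt, 0.96), and Nfia (123 CPM in GlaKO and 72.1 CPM in wt, 0.77). Their median was 0.41 (0.27 to 0.48 over the other settings).

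The other lists held few genes past 1.5-fold. Vesicle traffic genes had 3 higher and 0 lower of 45, namely Sec24d (0.998) and Sec16a (0.76), of the vesicle coat that leaves the ER, and the Golgi gene Golga4 (0.74). Their median of 0.14 turned to -0.0048 with TMM scaling. Of 23 receptors of hormones and growth factors and their partners, Ramp1 (1.46), a partner of calcitonin-family receptors, the glucocorticoid receptor gene Nr3c1 (0.70) and the ligand gene Edn3 (0.62) were higher and Ramp2 (-0.62) was lower. Of 19 genes of fatty acid carriers and lipid droplets, Cidea, Fabp7 (1.61) and Fabp5 (1.04) were higher and Fabp3 was lower. Fabp7 marks astrocytes and stood at 125 CPM in GlaKO and 141 CPM in wt outside choroid plexus, against 18.6 CPM in GlaKO and 6.11 CPM in wt in members. Of 18 junction genes Cldn11 (1.83), a claudin of oligodendrocytes and a gene of the rule, was higher and Ocln (-0.62) was lower. The rule bounds the UMIs of Cldn11 in members. Of 17 genes of major histocompatibility class I and interferon response, 0 were higher and 2 lower, the antiviral gene Bst2 (-0.83) and H2-T23 (-0.87). Of 31 antioxidant genes, the metallothionein gene Mt2 (0.89) was higher, and Gstp1 (-0.88), which has near-identical copies, and the thioredoxin reductase gene Txnrd2 (-0.61) were lower. Trf was the 1 lower gene of 13 in iron handling, and Pcx, pyruvate carboxylase (-0.65), of 25 around the tricarboxylic acid cycle. None of 15 glycolytic genes, 36 genes of mitochondrial upkeep or 77 mitochondrial ribosomal proteins passed 1.5-fold in either direction. Of 17 cilia genes, Ccdc153 (2.51) and Tmem212 (1.68) were past 1.5-fold higher, but 4 GlaKO cells held 105 of the 107 Ccdc153 UMIs, and its ratio was -2.0001 with a marker threshold of 20 UMIs.

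The 10 highest ratios were taken among genes seen in at least 5% of the members of the higher library, with no single cell holding over 20% of its UMIs and a level of at least 25% of that outside choroid plexus. They were led by Ccl9, a chemokine. It gave 84 UMIs in GlaKO members and 17 UMIs in wt members, which are 21.7 CPM in GlaKO and 1.35 CPM in wt, a log2 ratio of 4.01 (3.24 to 4.85), and it was seen in 13.8% of GlaKO and 0.802% of wt members. Outside choroid plexus Ccl9 stood at 14.1 CPM in GlaKO and 16.6 CPM in wt and had a ratio of -0.23. Cidea, a protein of lipid droplets, gave 209 UMIs in GlaKO members and 120 UMIs in wt members, a log2 ratio of 2.503 (2.17 to 2.84), with -0.48 outside choroid plexus. The others were Gm28050 (2.596), Tbc1d1, a regulator of Rab GTPases (2.27), Ceacam16, an adhesion molecule of the carcinoembryonic antigen family (2.04), Rab38, a GTPase of lysosome-related organelles (1.900), Ttc26, a protein of transport in cilia (1.85), Slc4a8, a bicarbonate exchanger (1.84), Igfbp4, and Tlx2, a homeobox factor (1.62). In the cells under 1% all 10 had ratios above 0 with intervals above equal levels, between 0.84 and 4.18, with 4.18 for Ccl9, 2.32 for Cidea, 3.48 for Ceacam16 and 1.61 for Rab38. Ccl9, Ceacam16, Slc4a8 and Igfbp4 had under 100 UMIs there, below the minimum used for comparisons.

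The 10 lowest ratios held Bex4, with 25 UMIs in GlaKO members and 335 UMIs in wt members and a log2 ratio of -2.04 (-2.69 to -1.45), against -0.30 outside choroid plexus. Fxyd2, a regulator of the sodium pump (-1.52), Mecom, a transcription factor (-1.41), Tm7sf2, a sterol reductase (-1.37), Gla, and the unnamed transcripts AL590144.2 (-1.59) and CAAA01147332.1 (-1.36) were also among them. Hist2h2aa1 (-1.799), Nme2 (-1.74) and Dynlt1b (-1.59) have near-identical copies between which reads are uncertain. Outside choroid plexus these 3 had similar ratios, at -1.94, -1.800 and -1.66. Fabp3, a fatty acid carrier, was also past 1.5-fold lower, at 87.3 CPM (78.2 to 97.1) in GlaKO members and 208 CPM (199.8 to 216) in wt members, a log2 ratio of -1.25 (-1.42 to -1.09), with -1.501 in the cells under 1% and -0.43 outside choroid plexus.

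Set beside the choroid plexus cells under 1%, the members gave other GlaKO over wt medians for secretory genes. In those cells 619 of 6847 genes were at least 1.5-fold higher in GlaKO (9.04%) and 184 at least 1.5-fold lower (2.69%). Over the 35 secreted protein genes compared in both classes, the median ratio was -0.25 in members and 0.42 under 1%. For 26 solute carriers the median was -0.27 in members and 0.55 under 1%. For 29 lysosomal enzymes it was -0.30 in members and 0.34 under 1%. Enpp2 had -0.071 in members and 0.75 under 1%, and Atp1b1 had -0.074 in members and 1.18 under 1%. Unfolded protein response genes were higher in GlaKO in both classes, with a median over 14 genes of 0.41 in members and 1.23 under 1%. The difference between classes was not tested, as each class holds 1 library per genotype.

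Transcripts of other cell types were present in members at low levels that differed between libraries. The 8 oligodendrocyte markers summed to 396 CPM in GlaKO and 222 CPM in wt (log2 ratio 0.84), against 20784 CPM in GlaKO and 19484 CPM in wt outside choroid plexus. The 10 microglial markers summed to 171 CPM in GlaKO and 129 CPM in wt (0.41), and the 6 astrocyte markers to 225 CPM in GlaKO and 149 CPM in wt (0.59). Oligodendrocyte, microglial and astrocyte transcripts were thus higher in GlaKO members, and the rule itself bounds the first 2. The 5 markers of oligodendrocyte precursors summed to 87.00 CPM in GlaKO and 30.9 CPM in wt and the 7 of endothelium to 42.6 CPM in GlaKO and 19.7 CPM in wt, and 5 cells held 56.97% and 69.1% of their GlaKO UMIs. Fibroblast markers, 5 of 8 in the files, summed to 82.1 CPM in GlaKO and 47.7 CPM in wt, with Dcn at 0 in GlaKO. Erythroid markers summed to 107 CPM in GlaKO and 35.1 CPM in wt, and the 6 T cell markers gave 50 UMIs in GlaKO and 32 UMIs in wt. Neuronal markers (51.1 CPM in GlaKO and 44.96 CPM in wt) and B cell markers (22.98 CPM in GlaKO and 28.5 CPM in wt, with Cd79b at 0 in wt) had intervals of the ratio that included equal levels. Pericyte and smooth muscle markers were lower in GlaKO, at 34.1 CPM in GlaKO and 77.6 CPM in wt. Border macrophage markers, 3 of 5 in the files, gave 6 UMIs in each library, with Ms4a7 at 0 in both. The 7 ependymal markers summed to 697 CPM in GlaKO and 537 CPM in wt. For the ependymal gene Ccdc153, 4 GlaKO cells held 105 of its 107 UMIs and 3 wt cells held 59 of 61. The part of these cell types in the ratios of Ptn, Aqp4, Slc4a4, Fabp7, Ctss, Cldn11 and Trf, which they express, was not tested.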

How the data were processed

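The deposited files are matrices of raw UMI counts per gene and cell barcode from 10x Genomics 3′ libraries, 1 for GlaKO (29914106 UMIs) and 1 for wt (31929688 UMIs). The authors deposited these counts without normalization, as the values show: whole numbers with totals that differ between barcodes. The submitters' processing notes name the mouse build mm10, Seurat 4, Cell Ranger 6.0.1 and R 4.1.3. How barcodes and genes were filtered is not given in the sources used here, and every barcode held at least 988 genes in GlaKO and 982 in wt and at most 12.03% and 11.86% mitochondrial UMIs.

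UMIs of members were summed per library, and levels are CPM of the summed class total. Genes listed for both libraries (12744) with at least 100 UMIs summed over both were compared (8662). The log2 ratio is GlaKO over wt of CPM, with an exact conditional binomial 95% interval; CPM intervals are exact Poisson and shares exact Clopper-Pearson. Low levels therefore have wide intervals. Where a list is given an interval, it runs from the median of its genes' lower bounds to the median of their upper bounds. It is no interval of the list's median. No p-value was computed, since each genotype has 1 library. A gene past 1.5-fold was counted as higher or lower. In the contrast with cells under 1%, mitochondrial UMIs were left out of totals.

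Genes named are, per library ratio, the 10 at each end under the limits stated with them, the most abundant and most different genes of the secretory lists, the ends of every other list, mitochondrial genes and genes of the rule. To the contrast with cells under 1%, 8 at each end were taken among genes seen in 5% of the cells of the higher class. Further list members are named after their values were seen, and some genes are not reported here. Members and lists were chosen with earlier results of these data known.

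Alternatives were TMM scaling (edgeR 4.0.16 in R 4.3.3), nuclear totals, other minimum counts and thresholds, cells thinned to 2000 UMIs, equal weights over 5 parts of depth or 4 of mitochondrial share, and barcodes with a high Scrublet score left out (scanpy 1.11.5). Scrublet marked 1.53% of GlaKO and 0.459% of wt barcodes, and its calls were not relied on in wt. Members were otherwise kept whatever their score. Python 3.11.15, numpy 2.4.6, scipy 1.17.1 and pandas 2.3.3 were used, and the computation was checked on simulated counts.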

Additional observations from a re-analysis of the deposited data

Results flagged for a closer look

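Several GlaKO over wt log2 ratios had one sign in members and the opposite sign in the choroid plexus cells under 1%, with both intervals off equal levels. For a list, the interval runs between the medians of its genes' lower and upper bounds, and is no interval of the list's median. These differences were not tested, since each class holds 1 library per genotype. The median of secreted protein genes was -0.25 in members and 0.42 under 1%, and that of solute carriers was -0.27 in members and 0.55 under 1%. Of 6841 genes compared in both classes, 175 were lower in GlaKO members and higher in GlaKO cells under 1%, and 70 the reverse.

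Among the secretory and transport genes named by the fixed rule, Angptl2 had -0.68 in members and 0.83 under 1%. Apoe had -0.67 in members and 0.10 under 1%, and Aqp1 had -0.47 in members and 0.61 under 1%. Atp1b1 had -0.07 in members and 1.18 under 1%. Further, Car12 had -0.48 in members and 0.26 under 1%, Clu had -0.31 in members and 0.42 under 1%, Enpp2 had -0.07 in members and 0.75 under 1% and Folr1 had -0.25 in members and 0.60 under 1%. Likewise, Fxyd1 had -0.20 in members and 0.41 under 1%, Kcnj13 had -0.49 in members and 0.41 under 1% and Ptgds had -0.25 in members and 0.52 under 1%. Genes named above outside that rule turned as well. Igfbp2 had -0.62 in members and 0.29 under 1%, and Slco1c1 had -0.10 in members and 0.71 under 1%. Slc12a2 had -0.16 in members and 0.45 under 1%, and Cldn2 had -0.28 in members and 0.84 under 1%. The lysosomal genes Psap and Ctsd had -0.53 and -0.46 in members, and 0.24 and 0.26 under 1%. Of the ER and vesicle genes, Ddost had -0.30 in members and 0.61 under 1%, Pdia6 had -0.23 in members and 0.70 under 1%, Ppib had -0.18 in members and 0.80 under 1%, Rpn2 had -0.31 in members and 0.58 under 1% and Tmed3 had -0.16 in members and 0.71 under 1%. Of mitochondrial genes, mt-Co1 had -0.36 in members and 0.11 under 1%, mt-Nd1 had -0.30 in members and 0.16 under 1% and mt-Nd2 had -0.08 in members and 0.18 under 1%. All of these were lower in GlaKO members and higher in GlaKO cells under 1%. In the opposite direction, Ctss had 0.87 in members and -0.53 under 1% and Mt2 had 0.89 in members and -0.71 under 1%. Outside the rule, so did Krt18, with 0.07 in members and -0.17 under 1%, and Ezr, with 0.07 in members and -0.11 under 1%.

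Krt23, a keratin gene, is listed for wt alone and took no part in the comparison. It gave 324 UMIs in wt members, seen in 254 of 1871 cells (13.6%), or 25.7 CPM. Of the genes listed for 1 library, 264 were listed for wt alone, 47 of them with at least 100 UMIs in members, and 410 for GlaKO alone, 0 of them with that many. A gene listed for 1 library has no value in the other, so no ratio was formed.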

How the results depend on the processing

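No paired analysis was possible because each genotype has 1 library and no test was made. The count of genes past 1.5-fold higher in GlaKO members was 665, and became 363 with TMM scaling, 1592 with a minimum count of 20, 113 with one of 500 and 1093 with cells thinned to 2000 UMIs. The count past 1.5-fold lower was 153, and became 315, 354, 50 and 560 in the same order. The secreted protein median was -0.37 with TMM scaling, -0.0055 with equal weights of depth and -0.081 with equal weights of mitochondrial share. The ion and water transport median was -0.21 with TMM scaling, 0.097 with equal weights of depth and 0.042 with equal weights of mitochondrial share. At a threshold of 2%, members were 35.9% of GlaKO and 58.5% of wt choroid plexus cells, and with a marker threshold of 20 UMIs 78.3% of wt choroid plexus cells were members. Against cells under 1%, genes higher in both libraries became 219 with a minimum count of 500, an alternative added after seeing the data. Genes lower in both became 0 with that minimum and 106 with thinned cells.

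Among genes and lists whose interval lay off equal levels, signs of the GlaKO over wt ratio turned as follows. With TMM scaling the cytosolic ribosomal protein median was -0.096, Cst3 -0.11, Car2 -0.045, Sec61g -0.045, Dad1 -0.013 and Hsp90b1 -0.088. With equal weights of depth the ribosomal median was -0.028, Enpp2 0.18, Atp1b1 0.19, Pdia6 0.0093 and mt-Nd2 0.073. With equal weights of mitochondrial share Enpp2 had 0.093, Atp1b1 0.016, mt-Nd1 0.0036, mt-Nd2 0.22 and mt-Nd3 0.080. With thinned cells Atp1b1 had 7.4e-05, Oxsr1 -0.24 and Gpr34, a microglial gene of the rule, -0.024. At a threshold of 2% Cst3 had -0.034 and mt-Nd2 0.12. With a marker threshold of 20 UMIs Ccdc153 had -2.0001 and Rarres2 -0.22, and without the cells holding 3 or more Ccdc153 UMIs, a choice made after seeing the data, Rarres2 had -0.032. Medians of lists nearer 0 also turned. With TMM scaling those of ER entry and folding (-0.086), vesicle traffic (-0.0048), iron handling (-0.080) and cilia (-0.018) were under 0. So were those of lipid carriers (-0.085), mitochondrial upkeep (-0.13) and receptors (-0.14). These last lists were under 0 in several other settings too. With thinned cells they had -0.11, -0.032 and -0.027 in that order, and with a minimum count of 500 -0.083, -0.021 and -0.0050. With equal weights of depth the median of solute carriers was 0.042. Those of junction, glycolytic, antioxidant, tricarboxylic acid cycle and mitochondrial ribosomal genes lay within 0.021 of 0 and turned under 1 or more settings. The cause of these changes was not tested. Over all alternatives, each list or named gene was counted once per setting, so 1 gene can count several times. For lists other than the 3 secretory ones, 238 such counts stayed within the interval of the value first given. A further 12 moved out of it, and 2 turned in sign as given above. For named genes, 1220 counts stayed, 210 moved and 22 turned.

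Depth limits genes under 100 UMIs, which were not compared, and the GlaKO members (456 cells) set the width of most intervals.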
